A study of Caenorhabditis elegans with 8 samples.

Results

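The annular furrow collagens of Caenorhabditis elegans are the 6 cuticle collagens encoded by dpy-2, dpy-3, dpy-7, dpy-8, dpy-9 and dpy-10. They were chosen by gene symbol, found through the sequence names in the array files, and all 6 were present among 20008 named genes. Together they had 10 probes, 1 each for dpy-2, dpy-3 and dpy-8, 2 each for dpy-7 and dpy-9, and 3 for dpy-10. Their levels were measured on 8 single-colour Agilent arrays of total RNA, 2 for each of 4 groups. The groups were wild-type N2 embryos, embryos of the seip-1 knockout, N2 young adults and seip-1 knockout young adults. seip-1 encodes seipin, a protein of the endoplasmic reticulum that shapes lipid droplets, and the series title names eggshell formation as its subject. The knockout allele and the number of lines behind it were not given in the sources used here. Young adults were collected 52 h after the L1 stage, and embryos were released by hypochlorite from gravid adults of that age. Each embryo sample pooled the eggs of about 40000 adults, with no staging of the embryos described. The labels do not say whether replicates came from separate cultures, so the p-values speak only to the variation among these samples, which may be technical.

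The worm is covered by a cuticle of crosslinked collagens that the epidermis secretes once before hatching and again at each moult. Annular furrows are the circumferential grooves that ring the cuticle, and loss of any of the furrow collagens removes the grooves and leaves a short, fat (dumpy) animal. Furrow loss is also known to switch on osmotic, detoxification and antimicrobial genes in the epidermis. The mRNAs of dpy-7, dpy-2 and dpy-10 are known to peak early in each moulting cycle, ahead of many other cuticle collagens.

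The seip-1 probe followed the labels. It was not well above background on any knockout array, and against wild type its level fell at least 311-fold in embryos and at least 114-fold in adults (limma, adjusted p = 2.25e-05 and 4.07e-05). Between 65.7% and 75.5% of the 43603 probes on an array were well above background. Sperm and yolk markers separated the stages as labelled. The summed level of 7 sperm genes was 230 to 240 on adult arrays and 0.384 to 0.531 on embryo arrays, in multiples of the 75th-percentile signal of the array, and that of 5 yolk genes was 474 to 622 and 0.126 to 0.402. All embryo arrays lay on 1 slide and all adult arrays on another, so the genotypes were compared within a slide, and a slide effect cannot be told apart from a stage effect.

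In embryos, 5 of the 6 furrow collagens were higher in the knockout by 4.36-fold or more, apart from dpy-8, for which only a bound of at least 3.92-fold can be given. They were dpy-2, dpy-3, dpy-7, dpy-8 and dpy-10, and dpy-9 did not pass the threshold. The call of dpy-8 was lost with another background correction (normexp). Of all genes tested in embryos, 44.6% were called higher, and 28.8% were called with at least a 4-fold higher level. The size of these differences depended on the scaling between arrays. The log2 differences of dpy-10, dpy-2, dpy-3 and dpy-7 were 1.08, 1.36, 1.42 and 1.68 with median scaling and 2.996, 3.24, 3.27 and 3.34 with quantile normalization, all past the threshold, against 2.13, 2.40, 2.47 and 2.73 here. In young adults none of the 6 passed, where 0.100% of all genes tested did. Levels are given below as the processed signal divided by the 75th-percentile signal of the same array, and differences as log2 values with standard errors from limma, where the threshold was a Benjamini-Hochberg adjusted p of 0.05 over all genes tested.

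**Figure D1:**
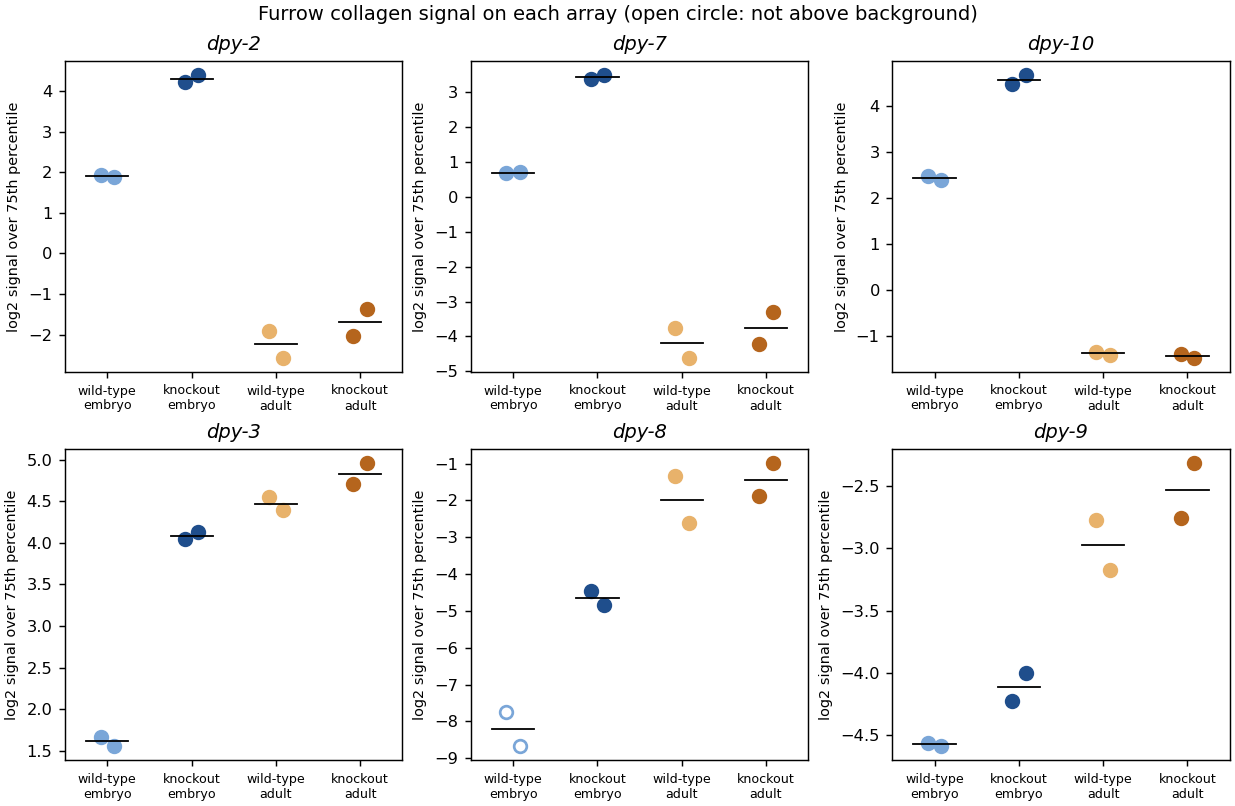
Signal of each furrow collagen (brightest measured probe) on each of the 8 arrays, as log2 of the processed signal over the array's 75th percentile, with black lines at the means of 2 arrays and open circles for values not well above background. The axis of each panel has its own range. The embryo groups do not overlap for any of the 6 genes, with the knockout higher, as for 49.2% of all genes tested. For dpy-9 the direction turned with other scalings. The genes dpy-2, dpy-7 and dpy-10 sit highest in embryos while dpy-3, dpy-8 and dpy-9 sit highest in adults.

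The gene dpy-10, known to experimenters as the co-conversion marker of worm genome editing, lies next to dpy-2 on chromosome II with a single annotated gene between them. Its brightest probe read 5.56 and 5.23 in wild-type embryos, 22.0 and 25.2 in knockout embryos, 0.395 and 0.380 in wild-type adults and 0.383 and 0.363 in knockout adults. The embryo groups were far apart, whereas the adult genotypes overlapped within a narrow band. The embryo difference was 2.13 ± 0.14 (4.36-fold, adjusted p = 3.65e-05, 2 arrays per group). The other probes of dpy-10 gave 2.09 ± 0.13 and 1.89 ± 0.12, so all 3 probes passed the threshold in the same direction.

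The neighbouring gene dpy-2 read 3.79 and 3.66 in wild-type embryos, 18.5 and 21.0 in knockout embryos, 0.267 and 0.169 in wild-type adults and 0.245 and 0.390 in knockout adults. Knockout embryos were highest, wild-type embryos second, and the adult genotypes overlapped. The embryo difference was 2.40 ± 0.29 (5.29-fold, adjusted p = 3.19e-04).

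The X-linked gene dpy-7, whose promoter is widely used to drive transgenes in the epidermis, read 1.61 and 1.63 in wild-type embryos, 10.3 and 11.2 in knockout embryos, 0.0738 and 0.0410 in wild-type adults and 0.0537 and 0.102 in knockout adults. It had the same order of groups as dpy-2, again with overlapping adults. The embryo difference was 2.73 ± 0.37 (6.62-fold, adjusted p = 5.17e-04). Its dimmer probe gave 2.65 ± 0.46 in embryos and was well above background on only 1 array of each adult group, so it was not tested in adults.

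The gene dpy-3, also X-linked, read 3.18 and 2.95 in wild-type embryos, 16.5 and 17.5 in knockout embryos, 23.4 and 21.1 in wild-type adults and 26.1 and 31.05 in knockout adults. No groups overlapped, and the order ran from wild-type embryos through knockout embryos and wild-type adults to knockout adults. The embryo difference was 2.47 ± 0.15 (5.54-fold, adjusted p = 3.36e-05).

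The probe of dpy-8, the remaining X-linked member, was not well above background in wild-type embryos, where it read 0.00464 and 0.00246. It read 0.0458 and 0.0347 in knockout embryos, 0.393 and 0.163 in wild-type adults and 0.271 and 0.503 in knockout adults. Knockout embryos lay above wild-type embryos and below all adults, and the adult genotypes overlapped. Against the lowest signal above background, the level in knockout embryos was at least 3.92-fold higher than in wild-type embryos (fitted difference 3.56 ± 0.53, adjusted p = 7.74e-04). With another background correction (normexp) the difference was 0.63 and missed the threshold (adjusted p = 0.147).

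The brighter probe of dpy-9, on chromosome IV, read 0.0422 and 0.0416 in wild-type embryos, 0.0534 and 0.0623 in knockout embryos, 0.146 and 0.111 in wild-type adults and 0.148 and 0.201 in knockout adults. The genotypes did not overlap in either stage, but the embryo difference of 0.46 ± 0.21 missed the threshold (adjusted p = 0.0820, 95% confidence interval -0.055 to 0.98). Its direction turned with the scaling between arrays, to -0.59 with median scaling and -0.53 with quantile normalization, and both values were called lower (adjusted p = 0.0388 and 0.0491). The dimmer probe read 0.00592 and 0.00885 in wild-type embryos, both not well above background, and 0.0151 and 0.0182 in knockout embryos. That probe exceeded wild type in knockout embryos by at least 1.63-fold (adjusted p over all probes = 0.00668), so the probes of dpy-9 disagreed on the call.

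In embryos 5 of 6 furrow collagens rose, against a background of 44.6% of 15394 genes tested that were called higher, and 84.9% called in either direction. All 6 had both knockout arrays above both wild-type arrays, as did 49.2% of genes tested. The median difference of the 6 was 2.44, and that of all genes tested was 0.15. Among all genes tested, 16.1% had a larger difference than dpy-7, 21.5% than dpy-3, 22.8% than dpy-2, 27.1% than dpy-10 and 46.0% than dpy-9. No such share is given for dpy-8, whose difference is known only as a bound. Differences of this size were thus common in these embryos, and 28.8% of genes were called with at least a 4-fold higher level.

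**Figure D2:**
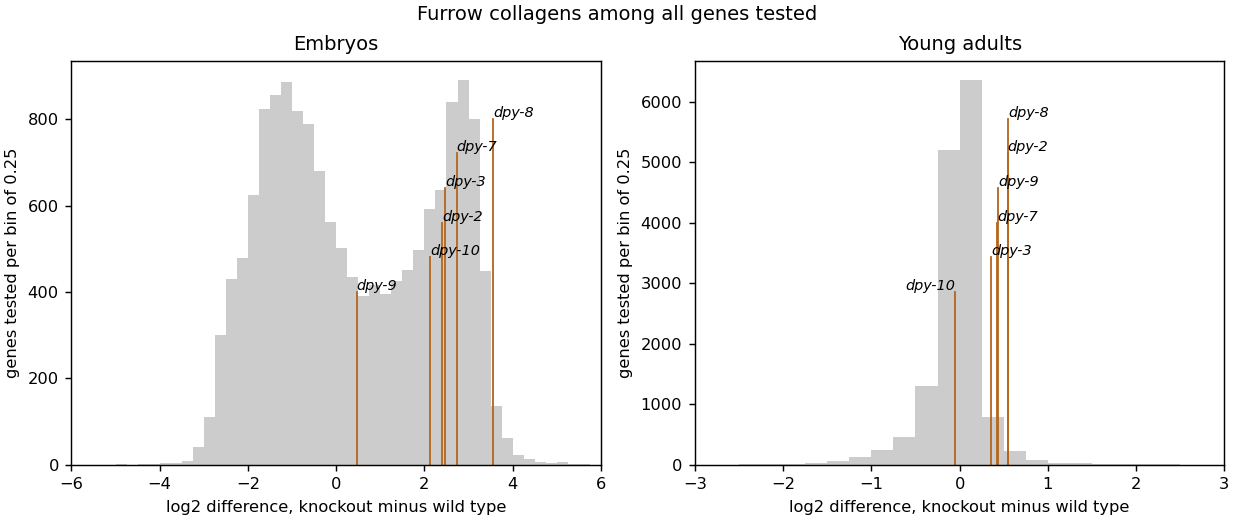
Number of genes tested per bin of 0.25 of the log2 difference between knockout and wild type, in embryos and in young adults, with the 6 furrow collagens marked by lines whose heights carry no meaning. The axes leave out 2 genes in embryos and 11 in adults; in embryos the 5 called members, dpy-8 at its fitted value, lie in or beyond the right-hand hump of the distribution and dpy-9 lies between the humps.

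Markers of tissues and stages moved with this difference. Their counts stand against 44.6% of all genes tested called higher in knockout embryos and 40.3% called lower. The summed level of 8 epidermal markers, the tissue that makes the cuticle, was 17.1 and 16.9 on the wild-type embryo arrays against 32.4 and 31.7 on the knockout ones, and 5 of 8 were called higher. The summed level of the furrow collagens was 14.2 and 13.5 on the former against 67.4 and 74.9 on the latter. A sum is weighted to its brightest genes, and by median log2 difference the epidermal markers (2.37) lay close to the furrow collagens (2.44). The sums alone therefore do not show that the collagens rose more than the epidermal markers. Median differences were 2.88 for muscle, 2.61 for neuronal and 2.18 for intestinal markers. Muscle markers were called higher for 7 of 8, with sums of 48.3 and 43.7 against 156 and 135, and intestinal markers for 7 of 8, with elt-7 called lower and sums of 14.4 and 14.1 against 83.5 and 63.2. Neuronal markers were called higher for 6 of 8 and lower for 1, with sums of 24.3 and 26.2 against 31.4 and 27.1. All 8 germline and oocyte markers were called lower, with sums of 70.6 and 88.6 against 15.0 and 17.7. Of 8 early-embryo markers 7 were called lower, with sums of 26.6 and 26.1 against 4.13 and 5.74. All sums rest on the 75th-percentile scaling and were not recomputed under others. Median scaling moved the median embryo difference of all genes by -1.05 on the log2 scale, so the rises of the epidermal and neuronal sums depend on the scaling. The median differences of the epidermal and neuronal markers, 2.37 and 2.61, were larger in size than that shift, but the markers were not refitted under other scalings. The part of embryo age or tissue make-up in the collagen difference was not tested, and in whole-embryo RNA more epidermal cells and more mRNA per cell cannot be told apart.

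The other genes of cuticle building were taken from lists drawn up with earlier results of these data known. Their counts stand against 44.6% of all genes tested called higher, 84.9% called in either direction, and a median of 0.15 over all genes. Of 12 other body-shape collagens tested, 11 rose and 0 fell, with a median of 2.40. They included the collagens dpy-4 (2.52 ± 0.22), bli-6 (2.80 ± 0.32), lon-3 (3.66 ± 0.47) and sqt-3 (0.94 ± 0.13). The median of the list lay close to the 2.44 of the furrow set. With median scaling the median embryo difference of all genes moved by -1.05, which is larger in size than the value of sqt-3. List genes were not refitted under other scalings, so the smaller values in all these lists depend on the scaling.

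Of 14 genes for collagen folding, processing and crosslinking, 9 rose and 3 fell, with a median of 1.78, so the share called in either direction was close to that of all genes. The extracellular protease gene adt-2 rose by 2.15 ± 0.13, the procollagen protease gene dpy-31 by 2.13 ± 0.15, and tsp-15, a tetraspanin that works with the crosslinking oxidase, by 2.81 ± 0.23. The cyclophilin gene cyn-9 went the other way and fell by 2.60 ± 0.18.

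Of 16 precuticle and apical matrix genes, 14 rose and 0 fell, with a median of 2.24. The precuticle is the transient matrix laid down ahead of the collagens. Examples were the lipocalin gene lpr-1 (2.95 ± 0.16), the Dispatched-related gene che-14 (2.41 ± 0.14, also among the epidermal markers), the zona pellucida domain gene noah-2 (1.97 ± 0.17) and the hedgehog-related gene qua-1 (3.32 ± 0.41).

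Of 14 epidermal and moulting transcription factors, 7 rose, 2 fell and 5 did not pass, with a median of 0.35. The share that rose was close to that of all genes, and the share called in either direction was below it. The zinc finger genes blmp-1 and bed-3 rose by 2.71 ± 0.12 and 2.90 ± 0.16, and peb-1 by 2.43 ± 0.18. The Grainyhead gene grh-1 had a background-level signal in wild-type embryos and exceeded it by at least 6.41-fold in knockout ones. The list holds lin-26 and elt-3, which are also epidermal markers.

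Of 17 genes of the responses known to follow furrow loss, 12 rose, 2 fell and 3 did not pass, with a median of 2.02, and the share called in either direction was close to that of all genes. Those that rose included the glutathione transferase gene gst-10 (2.64 ± 0.19), the transporter gene snf-12 of the epidermal immune response (2.78 ± 0.21), the osmotic response regulator osr-1 (3.19 ± 0.24) and dcar-1 (2.02 ± 0.16), a receptor upstream of epidermal antimicrobial peptides. The furrow-loss list holds regulators, such as osr-1 and dcar-1, and not only genes that furrow loss switches on. Whether such a response was on was not tested. Each of the 20 list genes named here passed the threshold in embryos by limma with Benjamini-Hochberg adjustment.

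The replicates of the knockout embryos differed. Of the 5 called furrow collagens, 4 lay farther from wild type on the second knockout array than on the first, and dpy-8 was the exception. Among all 13065 called genes this was so for 12.4%. The share was 8 of 14 among called precuticle genes, 3 of 11 among called body-shape collagens, 0 of 14 among called furrow-loss response genes and 0 of 8 among germline and oocyte markers. The shifts of the 4 furrow collagens were small. First minus second knockout array, they were -0.18 for dpy-2, -0.083 for dpy-3, -0.12 for dpy-7 and -0.20 for dpy-10 on the log2 scale. The standard deviation over all genes detected in knockout embryos was 0.41. Before scaling, the signals of dpy-3 and dpy-7 were higher on the first array. The cause was not tested, and the pattern was seen after the values were known.

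In young adults 0 of 6 furrow collagens passed limma's test, with every adjusted p at or above 0.943, and 0 had an unadjusted p under 0.05. The background was 0.100% of 15005 genes called in either direction, and 5.26% with an unadjusted p under 0.05. The differences were 0.54 for dpy-2 (95% confidence interval -0.17 to 1.25), 0.36 for dpy-3 (-0.00202 to 0.72), 0.43 for dpy-7 (-0.47 to 1.33), 0.55 for dpy-8 (-0.73 to 1.83), 0.44 for dpy-9 (-0.077 to 0.96) and -0.054 for dpy-10 (-0.38 to 0.28). These intervals leave room for a change of more than 2-fold in dpy-2, dpy-7 and dpy-8 and hold dpy-10 to a much narrower range. The genotypes did not overlap, with the knockout higher, for dpy-3 and dpy-9, 2 of 6, against 13.2% of all genes tested. Among all genes tested in adults, 2.23% had a larger difference than dpy-8, 2.25% than dpy-2 and 3.19% than dpy-9. The share was 3.29% for dpy-7, 4.57% for dpy-3 and 63.3% for dpy-10. Without the second knockout array the difference of dpy-7 was -0.033, and without the second wild-type array that of dpy-8 was -0.089.

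**Figure D3:**
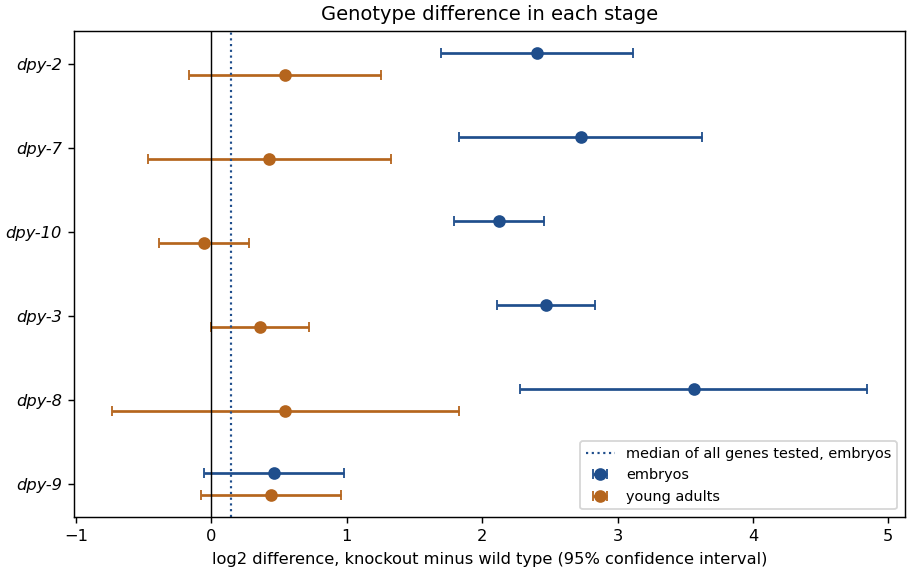
Log2 difference between knockout and wild type for each furrow collagen in embryos (blue) and young adults (brown), with 95% confidence intervals from the model of 8 arrays and the median of all genes tested in embryos (0.15) as a dotted line. In embryos the lowest bound of the 5 called members is 1.70, for dpy-2, and in adults every interval includes 0.

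The adult arrays were ordered alike for most members. For dpy-2, dpy-3, dpy-7, dpy-8 and dpy-9, 5 of 6, the second wild-type array was the lowest of the 4 and the second knockout array the highest, against 7.66% of all genes tested. For dpy-8 the distance between these arrays was from -0.91 to 0.72 around the mean of the 4 adult arrays, on the log2 scale, and for dpy-10 the 4 arrays lay between -0.066 and 0.056. The same order was found in 7 of 16 precuticle genes, 6 of 14 other body-shape collagens, 6 of 17 furrow-loss response genes, 1 of 14 processing genes and 0 of 8 germline and oocyte markers. The summed level of the precuticle genes was 2.92 and 1.85 on the wild-type against 1.88 and 3.51 on the knockout adult arrays, and that of the early-embryo markers 0.190 and 0.269 against 0.407 and 0.201. The array order was seen after the values were known, and its cause was not tested.

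**Figure D4:**
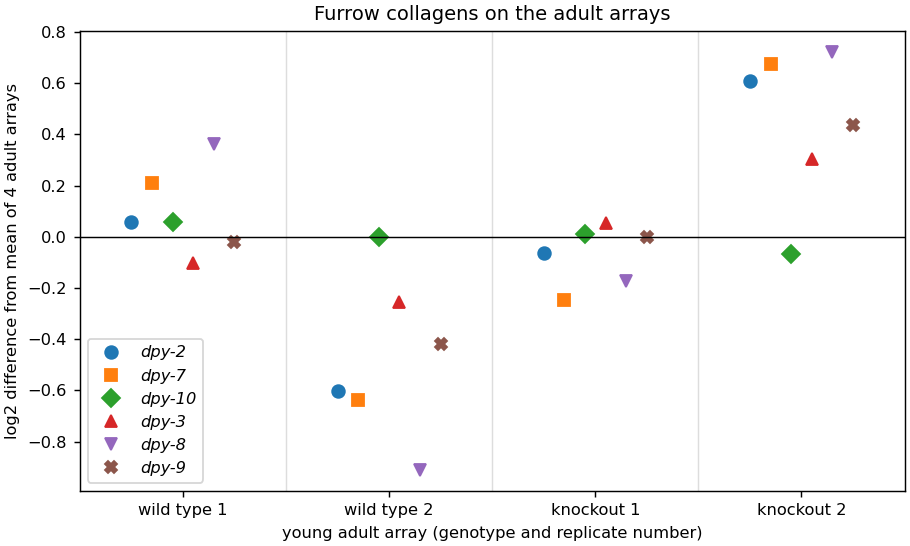
Log2 level of each furrow collagen on the 4 young adult arrays, as the difference from the mean of those arrays. All members except dpy-10 are lowest on the second wild-type array and highest on the second knockout array, and dpy-10 stays within -0.066 to 0.056.

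None of the lists of other cuticle genes had a member past limma's threshold in adults, where 0.100% of 15005 genes tested passed. An unadjusted p under 0.05 was found for 5.26% of all genes tested. In the lists it was found for 0 of 14 body-shape collagens, 1 of 14 processing genes and 0 of 12 transcription factors. The counts were 3 of 17 for furrow-loss response genes and 0 of 16 for precuticle genes.

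The genotype difference was larger in embryos than in adults for 5 of 6 furrow collagens, by the interaction term of the same model. A larger embryo value was called for 39.0% of 16829 genes. The difference of differences was 2.18 for dpy-10 (adjusted p = 2.86e-04), 2.11 for dpy-3 (3.79e-04), 1.86 for dpy-2 (0.00679), 2.30 for dpy-7 (0.00752) and 3.01 for dpy-8 (0.0106), where the wild-type embryo value lay at background. For dpy-9 it was 0.022 ± 0.30 (adjusted p = 0.950, 95% confidence interval -0.71 to 0.75). With median scaling the values of dpy-2 and dpy-7 fell to 0.78 and 1.22 and missed the threshold (adjusted p = 0.110 and 0.0544). With normexp that of dpy-8 was 0.14 (adjusted p = 0.818). The value of dpy-9 turned to -1.06 with median scaling and to -1.04 with quantile normalization, and passed the threshold in both.

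By stage, 3 of the 6 furrow collagens were higher in embryos and 3 in adults, and these are called the 2 sets below. In wild type, dpy-2, dpy-7 and dpy-10 were higher in embryos, by 17.6-fold, 29.4-fold and 13.9-fold (adjusted p = 1.91e-05, 2.65e-05 and 1.13e-06). The other members were higher in adults, dpy-3 by 7.25-fold, dpy-9 by 3.04-fold and dpy-8 by at least 24.8-fold (adjusted p = 4.95e-06, 4.21e-04 and 4.54e-05). The bound of dpy-8 holds only for the processed signal. With normexp its log2 difference was -2.64, still called but smaller in size than the bound. The background was 41.4% of 16117 genes called higher in embryos and 42.6% called lower, so the split of the members was near that of all genes. The 3 probes of dpy-10 gave 3.80, 4.23 and 4.07 on the log2 scale, and the probes of dpy-7 gave 4.88 and 4.78.

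In the knockout the same sets appeared. The level of dpy-2 was 63.8-fold, that of dpy-7 145-fold and that of dpy-10 63.1-fold higher in embryos than in adults. The level of dpy-3 was 1.68-fold, that of dpy-8 9.26-fold and that of dpy-9 2.99-fold lower. All 6 passed the threshold, where 38.3% of 16544 genes were called higher and 43.2% lower, and adjusted p was at most 0.00326. The call of dpy-3 was lost with quantile normalization, at a log2 difference of 0.085 (adjusted p = 0.614). These comparisons share their arrays with the genotype comparisons, and each stage has a slide of its own.

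**Figure D5:**
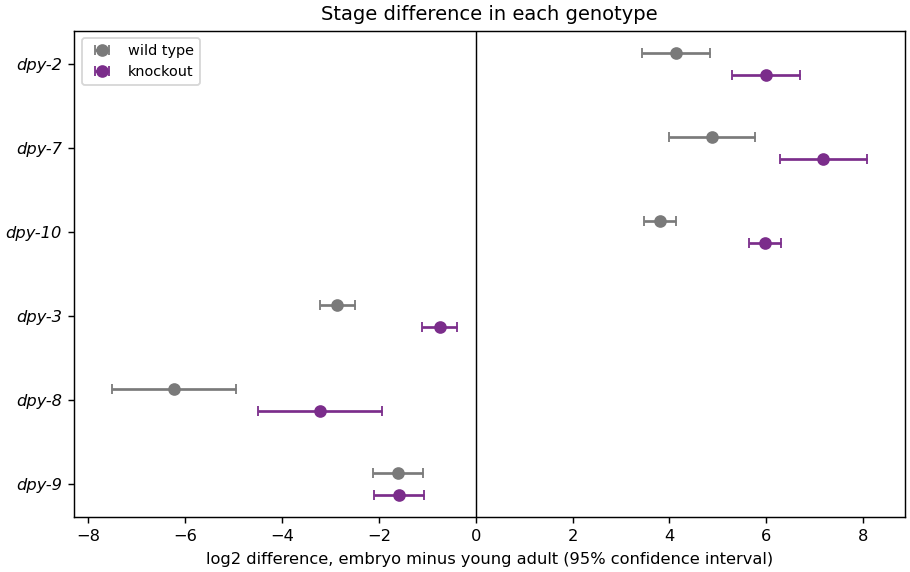
Log2 difference between embryos and young adults for each furrow collagen in wild type (grey) and in the knockout (purple), with 95% confidence intervals. The values of dpy-2, dpy-7 and dpy-10 lie above 3 and those of dpy-3, dpy-8 and dpy-9 below 0 in both genotypes.

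The other cuticle lists did not share 1 direction between stages in wild type. Of 14 other body-shape collagens 2 were higher in embryos and 12 in adults, with a median of -5.21, while of 16 precuticle genes 14 were higher in embryos and 1 in adults, with a median of 3.44. Over all genes the shares were the 41.4% and 42.6% given above, with a median of 0.0087. Of 13 transcription factors 12 were higher in embryos and 1 in adults. Of 14 processing genes 5 were higher in embryos and 7 in adults, and of 17 furrow-loss response genes 4 and 10. The stage direction of dpy-2, dpy-7 and dpy-10 was thus that of most precuticle genes, and the direction of dpy-3, dpy-8 and dpy-9 was that of most other body-shape collagens.

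Over the 8 arrays, which share the group differences above, the log2 values of dpy-2 and dpy-7 had a Pearson correlation of 0.9995, those of dpy-2 and dpy-10 0.9925 and those of dpy-7 and dpy-10 0.9933. The correlation was 0.9539 for dpy-3 with dpy-8, 0.945 for dpy-8 with dpy-9 and 0.8372 for dpy-3 with dpy-9. Every correlation between the sets was below 0. The stage differences that define the sets are part of all these correlations, which therefore add no separate evidence for the sets. The named genes most like the mean of the 6 members over these arrays were the surface gene srf-2 (0.994), the merlin-related gene nfm-1 (0.993), the fatty acid elongase gene elo-4 (0.989), wdr-62 (0.989) and the potassium channel gene twk-47 (0.989). That mean joins 2 sets with opposite stage directions, so a gene like it need not be like any member. Set against the mean of the other members, the correlation was 0.62 for dpy-2, 0.57 for dpy-10 and 0.52 for dpy-7. It was -0.087 for dpy-3, -0.48 for dpy-9 and -0.50 for dpy-8. Ranks among 16824 genes ran from 3757 for dpy-2 to 11025 for dpy-9.

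Of 16 measured genes up to 2 places from a furrow collagen on its chromosome, 10 rose in knockout embryos, 4 fell and 2 did not pass, against 44.6% of all genes called higher. The falls were C31H2.4 near dpy-8 (-1.30) and rcat-1, R02D3.8 and pqbp-1.1 near dpy-9 (-1.69, -2.25 and -1.48). The gene between dpy-2 and dpy-10 had no measured probe. On the far side of dpy-10, rpy-1 and C18H9.6 rose in knockout embryos by 2.85 and 3.12, as dpy-10 did, but in wild type both were higher in adults (embryo minus adult, -1.21 and -4.96), where dpy-10 was higher in embryos. On the far side of dpy-2, T14B4.5 rose by 1.11. Median scaling moved the median embryo difference of all genes by -1.05, so this rise depends on the scaling.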

How the data were processed

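The deposited files hold Cy3 intensity values of 8 arrays. Per the file headers, the processed intensity is background-subtracted and detrended within each array, and the software was Agilent Feature Extraction 10.7.1.1 per the submitters' processing notes. The authors' deposited value table holds log2 values. All its values lay within 0.01 of the log2 intensity minus the array's 75th percentile minus the wild-type mean of the stage, so it gives no stage comparison. Each of its steps was inferred from the values.

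Spots of 1 probe were averaged as log2 processed intensity, without controls and flagged spots (4 to 12 per array, 0 saturated), and scaled by the array's 75th percentile. Sequence names and accessions named 31500 and 3674 of 43603 probes. The RefSeq gene table used for symbols and gene order is of a later genome build than the arrays, so no positions are given. A gene was represented by its brightest probe among those that some group showed well above background on both its arrays (16829 genes), and tested where this held in a group compared. Groups at background give folds as bounds against the lowest signal of any probe above background on the array. These bounds hold for the processed signal and not for other background corrections. All 8 arrays entered 1 model with a mean per group (limma 3.58.1, R 4.3.3, two-sided, 2.39 prior and 4 residual degrees of freedom, Benjamini-Hochberg adjustment). The procedure was also run on simulated, already scaled data in which few genes changed. In the embryo comparison most genes were called, so the simulation does not bear on the scaling there. Array numbers, not counts, limit precision.

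The members and lists were chosen with earlier results of these data known. Text names all members, seip-1, from each list at most 4 genes with the smallest adjusted p in embryos, and the 5 named genes most like the members' mean. Neighbouring genes were chosen with their values in view. The symbols elt-5 and ram-4 did not match the table, and gst-4, sta-2, fbn-1, peel-1 and vit-3 had no named probe. Alternatives were other scalings, normexp with an offset of 50 on the median signal, other filters and probe rules, array weights, a trended robust prior, fits on the groups compared, the deposited value table, replicate blocks and leaving out each array. The difference between first and second replicate was correlated between wild type and knockout over 16829 genes. It gave 0.00162 in embryos and -0.477 in adults, so same-numbered arrays were not treated as pairs. Because the adult value was negative, a crossed block pairing unlike numbers in adults was added.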

Additional observations from a re-analysis of the deposited data

Results flagged for a closer look

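The genotype difference was larger in embryos than in adults, by the interaction test of limma over all genes, for dpy-10 (2.18 on the log2 scale), dpy-2 (1.86), dpy-3 (2.11), dpy-7 (2.30) and dpy-8 (fitted value 3.01). The wild-type embryo signal of dpy-8 was not above background, and with normexp its value was 0.14 (adjusted p = 0.818). Such a difference was called for 39.0% of genes. The interaction value of seip-1 itself was -0.91, with the knockout at background in both stages.

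The lists held genes with a larger embryo value as well. There were 9 of 14 other body-shape collagens, 8 of 14 folding, processing and crosslinking genes, 7 of 14 transcription factors, 9 of 17 furrow-loss response genes and 11 of 16 precuticle genes. No explanation of these differences was tested.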

How the results depend on the processing

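Of 639 member values under alternatives, 619 kept their direction and side of the threshold, 13 turned direction, 4 lost the call and 3 gained one. Much of this agreement was fixed in advance. Array weights, the trended robust prior, replicate blocks and fits on the groups compared left the member differences unchanged. So did leaving out an array of a group not compared. The deposited value table holds nearly the same values. In these settings only the side of the threshold could change. The number of called members ranged from 4 to 6 in embryos, was 0 in adults under every alternative run, and ranged from 4 to 6 for the interaction and 5 to 6 for each stage comparison. In embryos dpy-8 was 0.63 with normexp. The embryo value of dpy-9 was -0.59 with median scaling and -0.53 with quantile normalization, both called lower (adjusted p = 0.0388 and 0.0491), and it was called higher at 0.83 with the mean of its probes and at 0.46 with only embryo arrays (adjusted p = 0.0476) or with the crossed block (0.0224), so its called direction depended on the setting. The embryo values of dpy-10, dpy-2, dpy-3 and dpy-7 ran from 1.08, 1.36, 1.42 and 1.68 with median scaling to 2.996, 3.24, 3.27 and 3.34 with quantile normalization. The adult value of dpy-10 was 0.014 with the mean of its probes. Leaving out 1 array, the adult value of dpy-7 ranged from -0.033 to 0.89, that of dpy-8 from -0.089 to 1.18 and the interaction value of dpy-9 from -0.20 to 0.24. For the interaction, dpy-2 was 0.78 and dpy-7 1.22 with median scaling, dpy-8 was 0.14 with normexp, and dpy-9 was -1.06 with median scaling, -0.28 with the median over probes detected on every array, -1.04 with quantile normalization and -0.23 with normexp. The knockout stage value of dpy-3 was 0.085 with quantile normalization. These 4 settings, in that order, moved the median embryo difference of all genes by -1.05, -0.29, -0.13 and -0.24. With every probe as a feature, which tests more features, called features numbered 23090 in embryos against 13065 genes, 21583 against 12221 for the interaction, 24060 against 13536 for wild-type stages and 23873 against 13471 for knockout stages. The 15 adult calls became 51 with normexp, 1 with only probes detected on every array compared, 8 with array weights, 24 with a trended robust prior and 1 with only adult arrays, and ranged from 2 to 74 without 1 array, the highest without the first knockout adult array. With the replicate block the adult calls were 2, and the called members stayed at 5 in embryos, 0 in adults, 5 for the interaction and 6 in each stage comparison. The crossed block, added after seeing the data like the median over probes detected on every array, gave 1 adult call. The fits on fewer arrays or more features differ by construction, and for the other settings the cause was not tested. Dim probes (dpy-8 and dpy-9 in embryos) limit what can be measured.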
